A study of Mus musculus with 4 samples.

Results

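SLC25 genes encode the mitochondrial carriers, and they were followed here across wild-type (WT) and Asxl1-/- (KO) mouse progenitors. The members are the deposited loci that carry an Slc25a symbol followed by a number and reach a normalised read count of at least 10 in at least 2 libraries. They came to 40 of the 43 such loci in the table, among 13764 loci that passed the same filter. Levels in WT or KO did not choose members by direction.

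The 4 libraries were 2 WT and 2 KO, all from C57BL/6 mice, and each was made from 2000000 bone-marrow Lin-Kit+ cells. These cells lack the surface markers of mature blood lineages, carry the Kit receptor and include stem and progenitor cells. ASXL1 is a chromatin regulator often mutated in myeloid malignancy, and the series examines ASXL1 together with cohesin, which links sister chromatids. The labels give genotype and replicate number, but not the age or sex of the mice, whether cells of several mice were pooled, or how the Asxl1 allele was made.

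Mitochondrial carriers are small proteins of the inner membrane that move nucleotides, phosphate, amino acids, carboxylic acids, cofactors and iron-related substrates between the cytosol and the matrix. Each is built from a repeated motif, and most exchange one metabolite for another. In blood progenitors they feed ATP supply, and in red cell precursors they also bring in iron and glycine for heme, the oxygen-binding group of hemoglobin.

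Of the 40 loci, 4 rose and 3 fell in KO, and 33 did not pass the test. The carriers that rose were Slc25a24, Slc25a38, Slc25a21 and Slc25a18, and those that fell were Slc25a13, Slc25a1 and Slc25a23. The called share of 17.5% lies near the background, since 20.9% of all 13764 tested loci were called, 11.9% higher and 8.97% lower. The median log2 fold change of the 40 loci was -0.02 and that of all tested loci was -0.01. In 25 of the 40 loci the log2 fold change was smaller than 0.25 in either direction. The groups did not overlap in 24 of the 40 loci, against 66.1% of all tested loci. Of these, 12 lay higher and 12 lower in KO, where the background was 32.5% and 33.6%.

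A locus was called when its p-value from limma, adjusted over all tested loci by the Benjamini-Hochberg method, was under 0.05. Values per library are normalised read counts, means are given ± SD over n = 2 libraries, and fold changes are log2 differences of KO over WT ± SE on the log2(value + 1) scale. The split of the calls depended on the scaling. With upper-quartile scaling 4 carriers were higher and 8 lower (10.2% and 13.8% of all loci), and with scaling to total reads 4 were higher and 10 lower (9.66% and 15% of all loci).

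**Figure D1:**
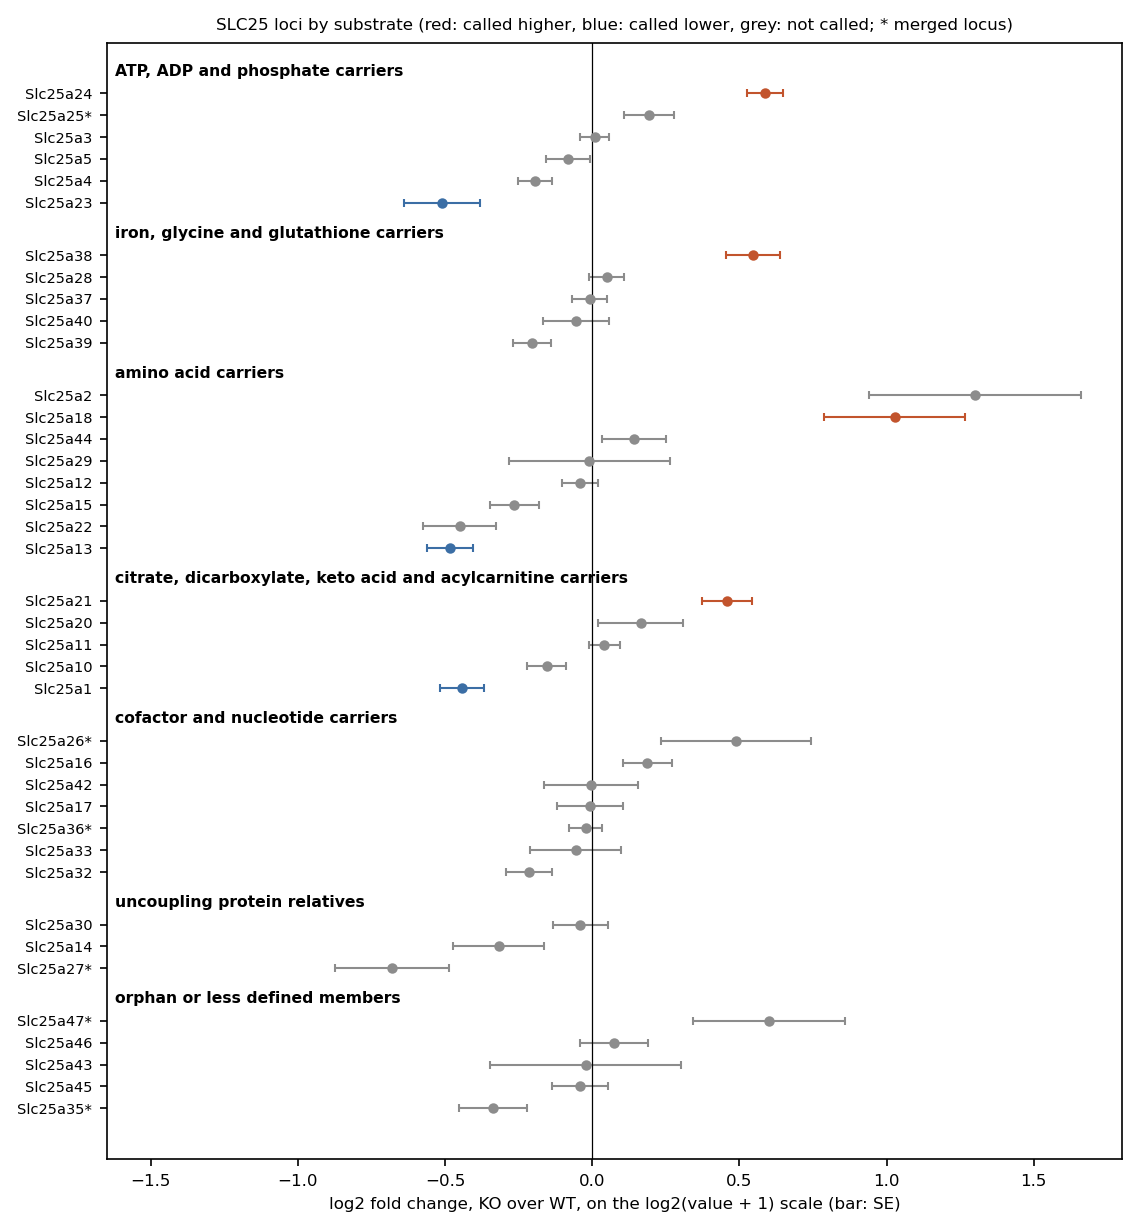
Log2 fold change of KO over WT on the log2(value + 1) scale for the tested SLC25 loci described by name, grouped by substrate. Points are limma estimates and bars are SE; the 4 loci called higher are red, the 3 called lower are blue, those not called are grey, and an asterisk marks a locus merged with another gene name.

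Depth was lower in WT (46597871 and 49764454 recovered reads) than in KO (83586916 and 76688583). Asxl1 itself checked the labels: its normalised read counts were 9742 and 9472 in WT and 146 and 135 in KO. Kit, which defines the sorted cells and is merged with AK047175, was present in every library, at 17739 and 16149 in WT and 18483 and 18889 in KO. The locus Tsix+Xist was high in replicate 1 (103006 in WT, 89290 in KO) and lower in replicate 2 (2123 in WT, 147 in KO). Y-linked transcripts were low in replicate 1 and high in replicate 2 of both genotypes, so the replicate numbers run together with sex. The source of the Xist signal left in WT replicate 2 was not tested. Among the marker lists, 8 of 13 tested erythroid and 9 of 10 mature neutrophil loci rose, and none in either list fell. Summed erythroid marker values were 130905 and 147352 in WT and 196253 and 233563 in KO, and summed mature neutrophil values were 1044072 and 1164406 in WT and 2100634 and 1961254 in KO. The only defining marker listed at 0 in any library of these 2 lists was Hba-a2. The part of cell composition in any result below was not tested. In these bulk samples a smaller number of cells of a type and less RNA per cell cannot be told apart.

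The start regions of 4 called carriers are shown so that letters of 2 that rose and 2 that fell can be read side by side; these 4 were picked after their values were seen. Each runs 5' to 3' from 250 bases before to 50 bases after the annotated start (RefSeq, GRCm38.p6; the deposited table uses mm9). Capitals mark matches on either strand to the GATA motif AGATAA, the CCAAT box CCAAT, the GC box GGGCGG or the E box CACGTG, and no matches overlapped. Slc25a24 (chr3:109122899-109123198, plus strand) and Slc25a38 (chr9:120110132-120110431, plus strand) rose, while Slc25a13 (chr6:6217124-6217423, minus strand) and Slc25a1 (chr16:17928170-17928469, minus strand) fell.
Slc25a24: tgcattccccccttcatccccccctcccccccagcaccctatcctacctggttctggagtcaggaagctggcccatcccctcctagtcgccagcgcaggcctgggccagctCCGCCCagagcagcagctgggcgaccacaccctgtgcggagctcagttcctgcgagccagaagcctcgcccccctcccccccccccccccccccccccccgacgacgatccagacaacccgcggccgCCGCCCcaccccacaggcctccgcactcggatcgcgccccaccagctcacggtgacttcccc
Slc25a38: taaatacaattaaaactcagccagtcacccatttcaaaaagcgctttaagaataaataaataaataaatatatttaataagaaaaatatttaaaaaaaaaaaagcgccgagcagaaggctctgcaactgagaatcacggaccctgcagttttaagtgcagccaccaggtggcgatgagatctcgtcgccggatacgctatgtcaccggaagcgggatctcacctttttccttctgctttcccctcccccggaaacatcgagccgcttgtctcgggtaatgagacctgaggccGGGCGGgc
Slc25a13: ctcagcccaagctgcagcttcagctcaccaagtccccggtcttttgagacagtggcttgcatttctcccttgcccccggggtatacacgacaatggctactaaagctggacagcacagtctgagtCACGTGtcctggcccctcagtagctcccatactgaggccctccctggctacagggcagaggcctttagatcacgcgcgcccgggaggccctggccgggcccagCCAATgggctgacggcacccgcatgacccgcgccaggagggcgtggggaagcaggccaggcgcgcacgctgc
Slc25a1: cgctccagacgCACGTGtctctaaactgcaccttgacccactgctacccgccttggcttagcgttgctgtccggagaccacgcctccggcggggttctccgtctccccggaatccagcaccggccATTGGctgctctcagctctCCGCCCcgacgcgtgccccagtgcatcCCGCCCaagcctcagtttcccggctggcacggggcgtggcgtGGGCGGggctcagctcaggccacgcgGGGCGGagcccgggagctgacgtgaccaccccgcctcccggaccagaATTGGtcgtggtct
Over all called carriers, the CCAAT box was found for 3 of 3 that fell and 1 of 4 that rose, and the E box for 2 of 3 and 0 of 4. The GC box was found for 2 of 3 that fell and 2 of 4 that rose, and the GATA motif for 0 of 3 and 0 of 4. Slc25a1 has 2 CCAAT boxes, 4 GC boxes and 1 E box, Slc25a24 has 2 GC boxes and Slc25a38 has 1 GC box. Slc25a13 has 1 CCAAT box, 1 E box and 0 GC boxes. No GATA motif was found in any of the 4. Of all 32851 windows in the table, 11.2% hold the GATA motif, 37.4% the CCAAT box, 35.7% the GC box and 7.15% the E box. Among the 31 tested carriers with a window, 2 hold the GATA motif, 17 the CCAAT box, 26 the GC box and 6 the E box. A carrier was counted if any of its windows held the motif, whereas the percentages count single windows. GC content ranged from 45.3% in Slc25a38 to 72.3% in Slc25a24, against a median of 52.7% over all windows. The motifs were chosen after the expression values were known, and the matches are a description of letters only.

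Of the 6 tested carriers of ATP, ADP and phosphate, 1 rose and 1 fell, and both belong to the ATP-magnesium/phosphate carriers, which calcium activates and which adjust the adenine nucleotide content of the matrix. Slc25a24 (chromosome 3, 108926066 to 108971327, mm9), known as SCaMC-1, had values of 3969.6 and 4243 in WT and 6304 and 6025 in KO. Both KO libraries stood well above both WT libraries. Slc25a24 rose by 0.59 ± 0.06 (adjusted p = 0.0034), and the replicate pairs gave 0.67 and 0.51. Slc25a24 was the one carrier that kept its call under all 13 alternatives, with a range of 0.52 to 0.63. Slc25a23 (chromosome 17, 57183133 to 57199286), which encodes the paralog SCaMC-3, had 1467 and 1848 in WT and 1211 and 1101 in KO. The groups did not overlap, but the WT libraries lay apart from each other. Slc25a23 fell by 0.51 on the log2 scale (SE 0.13, adjusted p = 0.0403). Its call was lost without WT replicate 2 (-0.35, adjusted p = 0.182) and without KO replicate 2 (-0.44, adjusted p = 0.0678). Slc25a23 overlaps Crb3 on the other strand in GENCODE M21 and whether strand was counted is not known. The deposited mm9 loci do not overlap, as Crb3 starts at 57201623, past the end of Slc25a23. The separate Crb3 locus had at most 4.88 in any library. The third paralog tested, Slc25a25 (SCaMC-2), merged with Naif1, gave 1754 and 1968 in WT and 2182 and 2069.5 in KO, which was not called (0.19 ± 0.08, 95% interval -0.01 to 0.40, adjusted p = 0.153).

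The ADP/ATP exchangers and the phosphate carrier, which supply ATP synthase and export its product, were among the most abundant members and none was called. Slc25a5 (ANT2), which lies on the X chromosome, had 37102 and 36803 in WT and 32378 and 37604 in KO. Slc25a5 in KO thus lay on both sides of WT (-0.08 ± 0.07, adjusted p = 0.458). Without KO replicate 2 it was called lower (-0.19, adjusted p = 0.0308). Slc25a4 (ANT1) had 5713 and 5375 in WT and 4761 and 4919 in KO, with no overlap, and its difference of -0.20 ± 0.06 missed the threshold (adjusted p = 0.0619). It was called lower with DESeq2 (adjusted p = 0.0439), upper-quartile scaling (adjusted p = 0.0324) and scaling to total reads (adjusted p = 0.0285). Slc25a4 and Slc25a5 are closely similar genes, and how the counting placed reads that match both is not known. Slc25a3, the phosphate carrier, had 26417 and 25594 in WT and 25434 and 26888 in KO, and its 95% interval of -0.11 to 0.13 covers only small differences.

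Of the 5 tested carriers of iron, glycine and glutathione, 1 rose and 0 fell by limma, with 2 at an unadjusted p under 0.05. Slc25a38 (chromosome 9, 120019516 to 120033437), the carrier that imports glycine for heme synthesis, had 1781 and 1973 in WT and 2578 and 2910.4 in KO. All KO values exceeded all WT values, and the change was 0.55 ± 0.09 (adjusted p = 0.0127), with 0.53 and 0.56 in the replicate pairs. Its call was lost without WT replicate 1 (0.47, adjusted p = 0.076). The erythroid marker sums given above were higher in the same libraries, and their part in this rise was not tested.

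The other heme-related carriers gave no such difference. Slc25a37 (mitoferrin 1), the iron importer of red cell precursors, had 9182 and 10105 in WT and 9463 and 9681 in KO, with KO inside the WT range (-0.01 ± 0.06, 95% interval -0.16 to 0.14). Slc25a28 (mitoferrin 2), the more widely expressed iron importer, had 2921 and 2993 in WT and 3023 and 3096 in KO, a difference of 0.05 ± 0.06 (95% interval -0.10 to 0.20). Slc25a39, a carrier for glutathione, had 5025 and 5498 in WT and 4613 and 4503 in KO. Its groups did not overlap, and its difference of -0.21 ± 0.06 was not called (adjusted p = 0.0697) but was called lower with DESeq2 (adjusted p = 0.0482), upper-quartile scaling (adjusted p = 0.0332) and scaling to total reads (adjusted p = 0.0301). Its paralog Slc25a40 overlapped between genotypes (-0.05 ± 0.11, adjusted p = 0.76). The differences between Slc25a38 and the 4 other loci of the list were not tested.

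**Figure D2:**
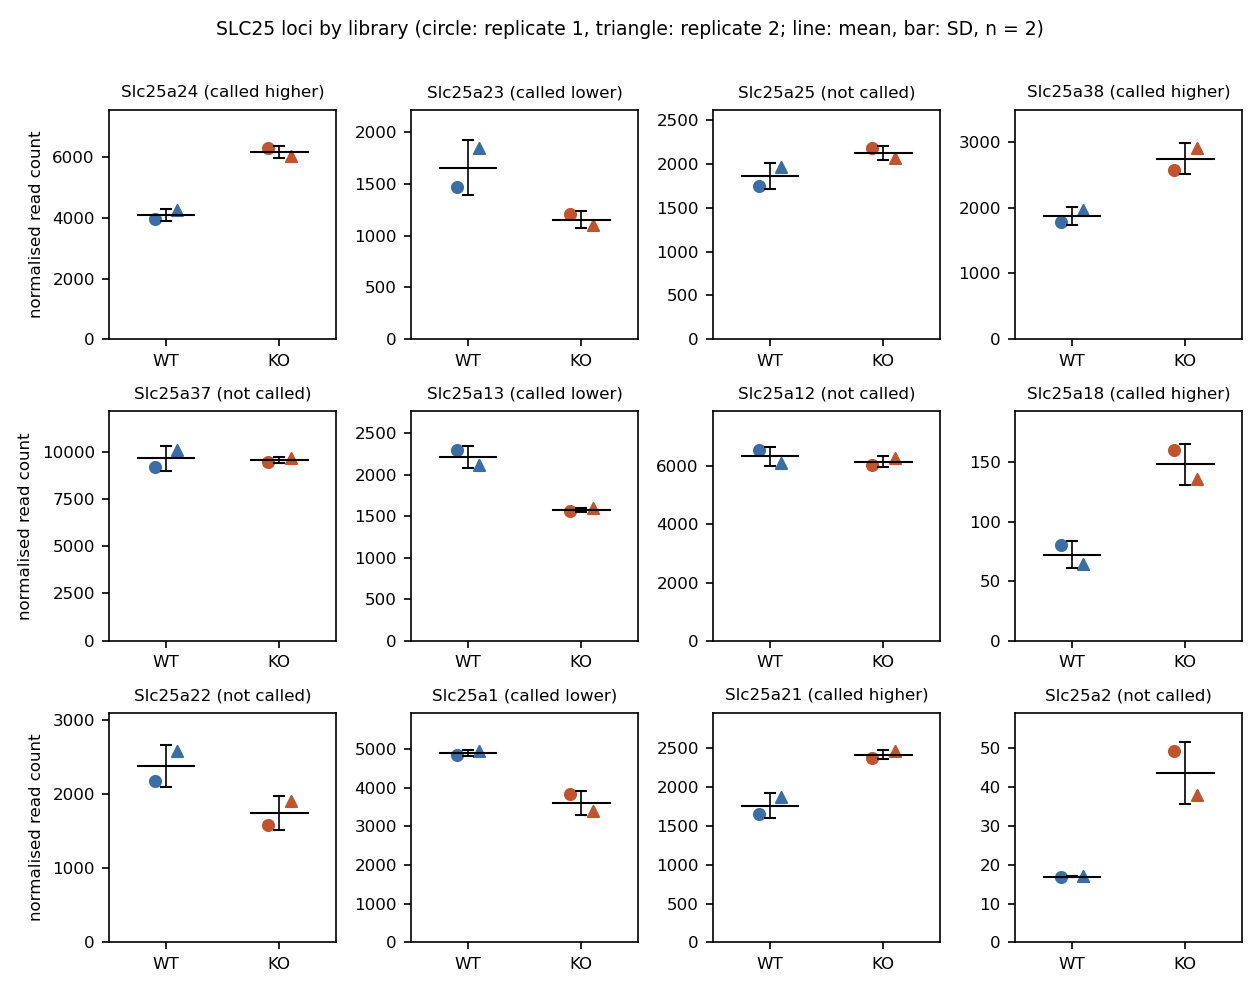
Normalised read counts of 12 SLC25 loci in each library, on linear axes from 0; circles are replicate 1, triangles replicate 2, lines means and bars SD over n = 2. The KO values of Slc25a24 are 6304 and 6025 against 3969.6 and 4243 in WT, while those of Slc25a37 lie between its WT values.

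Of the 8 tested amino acid carriers 1 rose and 1 fell, and the list holds 3 pairs of related carriers. Slc25a13 (chromosome 6, 5991217 to 6167173) encodes citrin, the aspartate/glutamate exchanger of the malate-aspartate shuttle that is known from liver. Its values were 2301 and 2117 in WT and 1561 and 1596 in KO. The KO libraries were close together and below both WT libraries. Slc25a13 fell by 0.48 on the log2 scale (SE 0.08, adjusted p = 0.0107). The call was lost without WT replicate 1 (-0.42, adjusted p = 0.0891). Slc25a12, which encodes the paralog aralar, had 6574 and 6112 in WT and 6029 and 6291 in KO, with overlapping groups and a difference of -0.04 ± 0.06 (95% interval -0.19 to 0.10).

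The glutamate carriers Slc25a18 and Slc25a22 had differences of opposite sign. Slc25a18 (GC2; chromosome 6, 120723785 to 120744000) had 80.3 and 64.6 in WT and 161 and 136 in KO, from 62, 53, 212 and 165 reads. Slc25a18 rose by 1.03 ± 0.24 (adjusted p = 0.0326), to 205% of the WT mean. This call was lost without WT replicate 1 (1.18, adjusted p = 0.089), without WT replicate 2 (0.87, adjusted p = 0.15) and without KO replicate 1 (0.91, adjusted p = 0.0825). In the GENCODE M21 annotation the gene overlaps Atp6v1e1 on the other strand, and whether the counting used strand is not given. The deposited mm9 loci do not overlap, as Atp6v1e1 starts at 120745261, past the end of Slc25a18. The separate Atp6v1e1 locus, a subunit gene of the vacuolar proton pump, rose by 0.33 ± 0.05 (adjusted p = 0.0122) from a mean of 4486 ± 137 to 5626 ± 56.4. Slc25a22 (GC1) had 2184 and 2581 in WT and 1580.3 and 1910.3 in KO, without overlap. The replicate pairs gave -0.47 and -0.43. The difference of -0.45 ± 0.12 narrowly missed the threshold (adjusted p = 0.0516). It was called lower with DESeq2 (adjusted p = 0.00762), upper-quartile scaling (adjusted p = 0.0329), scaling to total reads (adjusted p = 0.0326) and without KO replicate 2 (adjusted p = 0.0135).

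The ornithine carriers link the urea cycle and polyamine precursors across the membrane. Slc25a2 (ORC2; chromosome 18, 37797031 to 37798377) was the least abundant tested member, with 16.8 and 17.1 in WT and 49.3 and 38.0 in KO, from 13, 14, 65 and 46 reads. The groups were well apart, yet the difference of 1.30 ± 0.36 was not called (adjusted p = 0.0524). A pseudocount of 5 gave a call (1.14, adjusted p = 0.0471). Slc25a2 overlaps 3 coding gene models on the other strand in GENCODE M21, which makes its reads uncertain if the counting ignored strand. Slc25a15 (ORC1), its more abundant relative, had 1389.7 and 1407 in WT and 1204 and 1125 in KO (-0.26 ± 0.08, adjusted p = 0.0722). It was called lower with upper-quartile scaling (adjusted p = 0.0426) and scaling to total reads (adjusted p = 0.0376). Slc25a29, a carrier of basic amino acids, ranged from 123 to 202 in WT and from 155 to 158 in KO, and Slc25a44, a carrier of branched-chain amino acids, from 2526 to 2811 in WT and from 2668 to 3242 in KO. Neither was called.

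Of the 5 tested carriers of carboxylic acids and acylcarnitines, 1 rose and 1 fell. Slc25a1 (chromosome 16, 17925303 to 17928312), the citrate carrier that exports citrate for fatty acid and sterol synthesis, had 4846 and 4943 in WT and 3827 and 3391 in KO. Both KO libraries were below both WT libraries, at 73.7% of the WT mean. Slc25a1 fell by 0.44 on the log2 scale (SE 0.07, adjusted p = 0.0123), and the call was lost without WT replicate 1 (-0.46, adjusted p = 0.0658) and without WT replicate 2 (-0.43, adjusted p = 0.0702). Slc25a21 (chromosome 12, 57813620 to 58298459), the oxodicarboxylate carrier of lysine and tryptophan breakdown, had 1653 and 1875 in WT and 2377 and 2464 in KO. It rose by 0.46 ± 0.09 (adjusted p = 0.0174), which was lost without WT replicate 1 (0.37, adjusted p = 0.104). Slc25a21 overlaps Pax9 on the other strand in GENCODE M21, and whether strand was counted is not known. The deposited mm9 loci do not overlap, as Pax9 ends at 57812217, before Slc25a21 starts. The separate Pax9 locus had 14.2 and 4.88 in WT and 31.1 and 10.7 in KO. Whether reads of the 2 genes mix was not tested.

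The remaining 3 of the list were not called. Slc25a10, the dicarboxylate carrier, had 2551 and 2531 in WT and 2223 and 2345 in KO, lower without overlap (-0.15 ± 0.07, adjusted p = 0.146). Slc25a11, the oxoglutarate/malate carrier that completes the malate-aspartate shuttle, differed by 0.04 ± 0.05, a sign that turned under upper-quartile and total-read scaling; it too overlaps a coding gene on the other strand, as do Slc25a25, Slc25a35 and Slc25a46. Slc25a20, which imports acylcarnitines for fatty acid oxidation, had 2506 and 1844 in WT and 2342 and 2477 in KO. The gap between its WT libraries exceeded that between the means of 2175 in WT and 2410 in KO.

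Of the 8 tested cofactor and nucleotide carriers 0 rose and 0 fell by limma, and 2 of the 8 had an unadjusted p under 0.05. EdgeR called none in either direction, and DESeq2 called 1 higher and 0 lower. Slc25a32, which brings folate or FAD into the matrix, had 1721 and 1811 in WT and 1472 and 1572 in KO, a difference of -0.21 ± 0.08 (adjusted p = 0.105) that was called with scaling to total reads (adjusted p = 0.0492). Slc25a26, the S-adenosylmethionine carrier, shares its locus with Lrig1 on the other strand. That locus had 705 and 777 in WT and 784 and 1377 in KO, so the higher mean came from KO replicate 2, and without KO replicate 1 it was called higher (0.90, adjusted p = 0.00365).

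The pyrimidine nucleotide carriers Slc25a33 and Slc25a36 differed by -0.06 ± 0.15 and -0.02 ± 0.06. Slc25a16, linked to coenzyme A supply, differed by 0.19 ± 0.08 (adjusted p = 0.155), with KO at 2129 and 2379.8 above WT at 2027 and 1928. The coenzyme A carrier Slc25a42 and the peroxisomal Slc25a17, which is not a mitochondrial protein, overlapped between genotypes. Their differences were -0.00 ± 0.16 and -0.01 ± 0.11.

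None of the 3 tested uncoupling protein relatives and none of the 5 less defined members was called by limma, and 1 locus in each list had an unadjusted p under 0.05. EdgeR called none of them either. Slc25a27 (UCP4), merged with AK084741, had 342 and 316 in WT and 236 and 177 in KO, the lowest fold change of all 40 loci at -0.68 ± 0.19 (adjusted p = 0.0559). It was called lower with DESeq2 (adjusted p = 0.0445), upper-quartile scaling (adjusted p = 0.0434), scaling to total reads (adjusted p = 0.0406) and without KO replicate 1 (-0.89, adjusted p = 0.0196). Slc25a14 (UCP5) had 404 and 369.5 in WT and 285 and 337 in KO (-0.32 ± 0.15, adjusted p = 0.189). Slc25a30 differed by -0.04 ± 0.09.

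Slc25a47, a carrier known from hepatocytes and listed as Hdmcp+Slc25a47, had 69.9 and 59.8 in WT and 109.9 and 88.3 in KO, from 54, 49, 145 and 107 reads. The difference of 0.60 ± 0.26 was not called (adjusted p = 0.148). Slc25a35, merged with Rangrf, was lower without overlap at 883 and 1042 in WT against 756 and 762 in KO (-0.34 ± 0.11, adjusted p = 0.0871), and was called with scaling to total reads (adjusted p = 0.0495). Slc25a43, Slc25a45 and Slc25a46 overlapped between genotypes, with differences of -0.02 ± 0.32, -0.04 ± 0.09 and 0.07 ± 0.12. Slc25a46 acts at the outer membrane, where it takes part in mitochondrial shape.

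The 3 loci under the filter were Slc25a31, Slc25a34 and Slc25a41. Slc25a31, the testis ADP/ATP exchanger, had 2 and 4 reads in WT and 7 and 4 in KO. Slc25a41, an ATP-magnesium/phosphate carrier, had 2 and 2 in WT and 1 and 2 in KO. Slc25a34 had 1 and 0 reads in WT and 12 and 1 in KO. Per library read this is 7.82 times the WT rate (95% interval 1.17 to 332, exact, counting error only), and it rests on KO replicate 1. The intervals of Slc25a31 (0.374 to 3.63) and Slc25a41 (0.0661 to 2.67) include 1, so no difference was detectable at this depth.

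Levels could be compared between members only per exon length, which was done for the 33 tested loci that are not merged, as RPKM, a read count scaled to exon length and library depth. Slc25a5 was highest in WT at 493 ± 4.77, followed by Slc25a3 at 221 ± 5.82 and Slc25a39 at 51.6 ± 3.08. Slc25a2 was lowest at 0.205 ± 0.00122. In WT 21 of the 33 loci reached 10 or more and 3 were under 1. Of the 32 neighbouring pairs in this order, 13 overlapped between WT libraries, among them Slc25a1 at 48.6 ± 0.486 and Slc25a4 at 47.6 ± 2.24. Next came Slc25a11 at 44.9 ± 0.556, Slc25a17 at 38.6 ± 6.48 and Slc25a37 at 38.2 ± 2.43, the last pair overlapping as well. The order moved by at most 4 places between WT and KO.

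**Figure D3:**
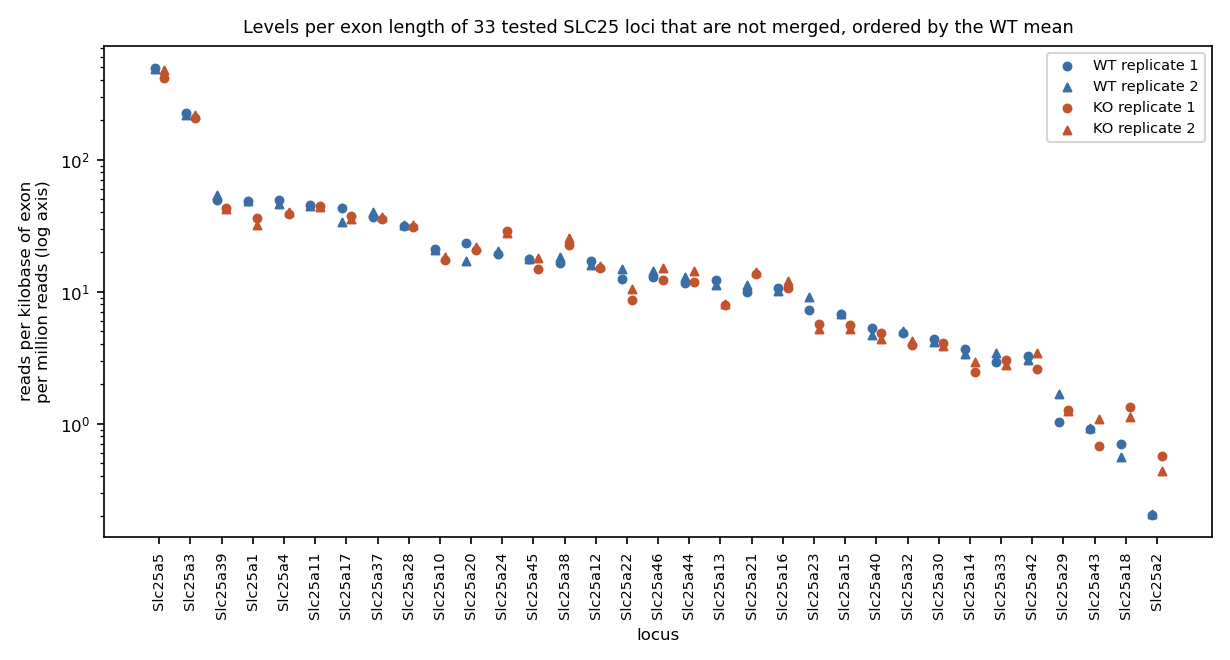
RPKM (reads scaled to exon length and library depth) on a log axis for the 33 tested, unmerged SLC25 loci, ordered by the WT mean, with 1 point per library. Slc25a5 and Slc25a3 lie at 493 and 221 in WT, above all other carriers, and the order in KO is close to that in WT.

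Related carriers differed in level per length to varying degrees, and called loci included both abundant and scarce relatives. RPKM is scaled to total reads and not by the deposited factor, so its steps from WT to KO differ from the fold changes above. With scaling to total reads the median log2 fold change of all tested loci was -0.07, against -0.01. Slc25a24 went from 19.8 ± 0.853 in WT to 28.4 ± 0.888 in KO and Slc25a23 from 8.15 ± 1.29 to 5.43 ± 0.362. Slc25a12 lay at 16.5 ± 0.917 in WT and Slc25a13 at 11.7 ± 0.736, and in KO they lay at 15.3 ± 0.475 and 7.99 ± 0.13. Slc25a22 exceeded Slc25a18 in every library, at 13.6 ± 1.55 against 0.627 ± 0.0983 in WT and 9.55 ± 1.28 against 1.23 ± 0.142 in KO. Mitoferrin 1 (Slc25a37) and mitoferrin 2 (Slc25a28) lay near each other, at 38.2 ± 2.43 and 31.8 ± 0.425 in WT and 36.2 ± 0.614 and 31.5 ± 0.561 in KO.

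The partners of the carriers were read from 7 lists of genes linked to mitochondria or to the substrates of the carriers. Beside their counts, 11.9% of all 13764 tested loci were called higher and 8.97% lower. Family members without an Slc25 symbol, such as uncoupling proteins and MTCH proteins, had 0 higher and 1 lower of 6. The lower count was 2 with edgeR, 3 with DESeq2 and with upper-quartile scaling and 4 with scaling to total reads. The called locus contained Mtch1, an outer-membrane member of the family, at 6224 and 5765 in WT and 4953 and 5098 in KO (-0.25 ± 0.06, adjusted p = 0.0339), and its call was lost without WT replicate 1 (-0.20, adjusted p = 0.223), without WT replicate 2 (-0.31, adjusted p = 0.0843) and without KO replicate 1 (-0.23, adjusted p = 0.0533). The machinery that imports carriers, the TOM complex and the TIM22 pathway, had 0 higher and 1 lower of 15, with a median of -0.09. That 1 locus, Tomm7, had 3981 and 3864 in WT and 3377 and 3382 in KO (-0.21 ± 0.06, adjusted p = 0.0449). Tomm7 was not called with edgeR (adjusted p = 0.0643), with no filter (adjusted p = 0.0569) or when any 1 of the 4 libraries was left out. The list had 2 lower with DESeq2 and 3 with upper-quartile scaling and with scaling to total reads.

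Other mitochondrial transporters had 3 higher and 1 lower of 19. Sfxn5, a sideroflexin, rose by 0.66 ± 0.16 (adjusted p = 0.034), Ccdc109a, the calcium uniporter now named Mcu, by 0.49 ± 0.09 (adjusted p = 0.0176) and Abcb10, an ABC transporter of the inner membrane needed for heme synthesis, by 0.48 ± 0.07 (adjusted p = 0.00958). Letm1, an ion exchanger of the inner membrane named here after its value was seen, fell by 0.28 (adjusted p = 0.0437). This list had 0 lower calls with edgeR, with no filter and without WT replicate 1, WT replicate 2 or KO replicate 1, and 3 with upper-quartile scaling and with scaling to total reads. None of the 3 rises was called without WT replicate 1 (adjusted p = 0.182, 0.0636 and 0.0601). Without WT replicate 2, Sfxn5 (adjusted p = 0.0666) and Ccdc109a (adjusted p = 0.0969) were not called, nor was Sfxn5 without KO replicate 1 (adjusted p = 0.0662).

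Mitochondrial iron and heme enzymes, partners of Slc25a37 and Slc25a38, had 2 higher and 0 lower of 10. This share of 20% lay near the 20.9% called among all tested loci. The list median was 0.24, and 9 of 10 log2 fold changes were above 0, against 6765 of all 13764 tested loci. Alas2, the erythroid enzyme that joins glycine to succinyl-CoA, had 756 and 973 in WT and 1360.5 and 1629.7 in KO (0.79 ± 0.15, adjusted p = 0.0194). Fech, which inserts iron into the heme ring, had 6000.3 and 6381 in WT and 7937 and 10385 in KO (0.55 ± 0.12, adjusted p = 0.0292). Both calls were lost without WT replicate 1 (adjusted p = 0.0777 for Alas2 and 0.121 for Fech), and that of Fech without WT replicate 2 as well (adjusted p = 0.0777). DESeq2 called 4 loci of the list higher, as did the fit without KO replicate 1, and without WT replicate 1 the count was 0. Alas2 is also in the erythroid marker list.

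Enzymes of the malate-aspartate shuttle and citrate metabolism, partners of Slc25a1, Slc25a11, Slc25a12 and Slc25a13, had 0 higher and 1 lower of 8. Idh2, the mitochondrial NADP-dependent isocitrate dehydrogenase, had 12837 and 12338 in WT and 9899 and 9383 in KO (-0.38 ± 0.05, adjusted p = 0.00714), and was not called without WT replicate 1 (adjusted p = 0.0576). The list had 2 lower with edgeR, DESeq2 and upper-quartile scaling and 3 with scaling to total reads. Of 4 mitochondrial folate and serine enzymes 0 were called by limma, edgeR or DESeq2, and 0 had an unadjusted p under 0.05, though 1 was called higher without KO replicate 1. The smallest p belonged to Mthfd2, with a difference of -0.16 ± 0.10 (adjusted p = 0.276). Of 5 carnitine system enzymes 1 rose: the locus Cpt1c+AK020101, which holds a carnitine palmitoyltransferase gene, went from 177 and 159 in WT to 349 and 431 in KO (1.20 ± 0.18, adjusted p = 0.00898). The rest of that list was not called: Cpt1a (0.18 ± 0.09, adjusted p = 0.177), Cpt1b (0.38 ± 0.14, adjusted p = 0.106), Cpt2 (-0.04 ± 0.07, adjusted p = 0.751) and Crat+Dolpp1 (0.07 ± 0.06, adjusted p = 0.467). The plot of partner lists shows these loci beside the carriers.

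**Figure D4:**
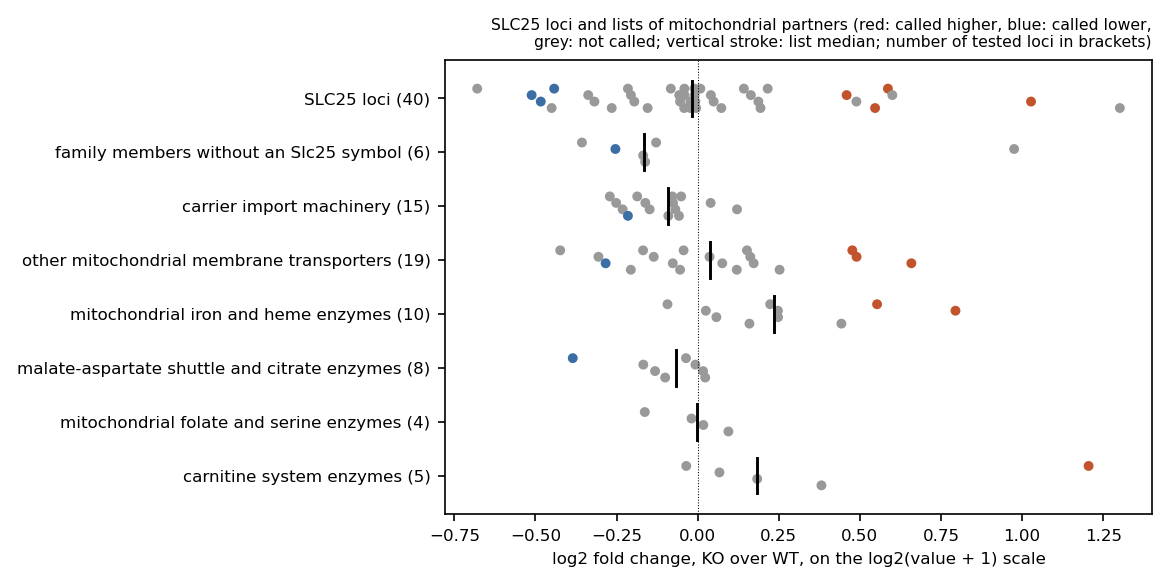
Log2 fold change of KO over WT on the log2(value + 1) scale for the 40 SLC25 loci and for 7 lists of partner genes, 1 point per locus with called loci in red (higher) or blue (lower) and list medians as strokes. The SLC25 median is -0.02 and that of the iron and heme enzymes is 0.24.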

How the data were processed

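RNA was measured in 2 WT and 2 KO libraries, grouped by the sample titles. Reads were aligned with STAR 2.3.1t to mm9, per the submitters' processing notes; the counter, annotation, strand use and scaling were not given in the sources used here. Each deposited signal value behaves as a read count scaled by the authors with a single library-wide factor: 100% of values were whole multiples, within 0.001 of a read, of the value of 1 read (1.30 and 1.22 in WT, 0.758 and 0.825 in KO). A count of 0 allows up to 3 reads; floors and intervals cover counting error only. Of 22849 rows, 4893 join neighbouring loci and stayed out of the tests, leaving 17956.

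The test was limma 3.58.1 (R 4.3.3) on log2(value + 1) with its trend option and genotype as the only term. It covered loci reaching 10 in 2 or more libraries. The fit was also run on simulated reads with a fixed spread and no sex difference. That setting is simpler than these data and does not show how the test performs on them. EdgeR 4.0.16, DESeq2 1.42.0 and limma-voom were run on the recovered reads. EdgeR called 1619 loci higher and 1220 lower, and DESeq2 called 1915 higher and 1498 lower. Other alternatives changed the pseudocount, filter, scaling, libraries or added a replicate block. The labels do not say that replicates are separate animals. Sex-linked transcripts differed between the 2 replicates of each genotype, so these did not come from the same animal. The p-values measure the spread between these samples, which also holds any difference by sex. Exon lengths came from GENCODE M21 (basic set, GRCm38) and served only for levels per length.

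Members and lists were chosen with earlier results of these data known. Named carriers are the called ones, those with a log2 fold change of at least 0.5 in size and their relatives, with the rest given briefly; of each partner list up to 3 called loci with the largest change are named, or that with the smallest p. One carrier locus is counted but not reported here by name. Other marker lists gave, higher and lower, 0 and 2 of 6 progenitor, 0 and 3 of 6 B lineage, 0 and 2 of 6 T and NK, 1 and 3 of 6 macrophage, 2 and 0 of 6 megakaryocyte and 0 and 1 of 6 stroma and endothelium loci.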

Additional observations from a re-analysis of the deposited data

Results flagged for a closer look

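Rows that join a carrier with a neighbouring locus lie outside the main measurement. A row that joins Slc25a12 with its neighbour AK138451, left out of the tests, held 2 and 0 reads in WT and 8 and 9 in KO, 17 in KO against 2 in WT. The rate per library read was 5.11 times higher in KO (95% exact interval 1.21 to 45.6, counting error only), and both KO libraries lay above both WT libraries. Another, joining Slc25a37 with D930020E02Rik, went the other way, with 4 and 2 reads in WT and 0 and 0 in KO (upper limit of the rate ratio 0.511, counting error only). They were singled out among 15 such rows with a carrier name, which together held 26 reads in WT and 52 in KO.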

How the results depend on the processing

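The 7 called carriers kept direction and call with a pseudocount of 5, no filter, a filter of 50, edgeR, DESeq2, limma-voom, upper-quartile scaling, scaling to total reads and the replicate block, and kept direction when any 1 library was left out. The count of carriers called lower, 3, became 7 with DESeq2, 8 with upper-quartile scaling, 10 with scaling to total reads and 5 with the replicate block. Over all 13764 loci DESeq2 called 1915 higher and 1498 lower, against 1640 and 1235 by limma. Leaving out 1 library gave 1 to 4 higher and 1 to 4 lower carriers; in such fits the lone library is assumed to vary like the others. Without WT replicate 1, 1 carrier was called higher and 1 lower, and without WT replicate 2, 3 and 1. Because replicate numbers run together with sex, a fit without 1 library also leaves a single sex in that genotype and both sexes in the other. The cause was not tested.

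The labels name no pairing, although the replicate numbers match the sex-linked transcripts in both genotypes; same-numbered deviations correlated at 0.25 across loci (Spearman 0.11). With the replicate block 1906 loci were higher and 1533 lower, and Slc25a22 (adjusted p = 0.00799) and Slc25a27 (adjusted p = 0.0361) were called lower, as were 2 shuttle and citrate enzymes, while 5 iron and heme enzymes were called higher. Over all loci, upper-quartile scaling gave 1408 higher and 1901 lower, and scaling to total reads 1330 and 2060, against 1640 and 1235. Without WT replicate 1, 603 were higher and 266 lower, and without WT replicate 2, 809 and 272.

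Signs turned only for carriers that were not called. With upper-quartile scaling and scaling to total reads the log2 fold changes were -0.012 and -0.024 for Slc25a11, -0.0039 and -0.016 for Slc25a28, and -0.045 and -0.057 for Slc25a3. EdgeR and DESeq2 gave 0.0075 and 0.012 for Slc25a42 and 0.013 and 0.018 for Slc25a43. Over fits without 1 library the ranges were -0.094 to 0.011 for Slc25a12, -0.068 to 0.023 for Slc25a36, -0.18 to 0.16 for Slc25a17, -0.057 to 0.39 for Slc25a20, -0.37 to 0.35 for Slc25a29, -0.17 to 0.061 for Slc25a33, -0.078 to 0.060 for Slc25a37, -0.032 to 0.048 for Slc25a3, -0.14 to 0.027 for Slc25a40, -0.21 to 0.20 for Slc25a42, -0.36 to 0.31 for Slc25a43, -0.17 to 0.088 for Slc25a45, -0.081 to 0.23 for Slc25a46 and -0.19 to 0.025 for Slc25a5. Depth limits Slc25a2, Slc25a18 and Slc25a47, with 13 to 212 reads per library.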
